A study of Mus musculus with 12 samples.

Results

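Fibulins and latent TGF-beta binding proteins (LTBPs) were followed in retinas of mice in which the homeobox gene Otx2 was deleted from photoreceptors. The 10 genes were listed by name, namely Efemp1, Efemp2, Fbln1, Fbln2, Fbln5, Fbln7, Ltbp1, Ltbp2, Ltbp3 and Ltbp4, out of 54146 genes counted, and all 10 were among the 18628 genes with enough reads to be tested. RNA-seq was performed on whole retinas of 12 mice, 1 eye per mouse and 3 mice per condition. The conditions were control retinas at postnatal day (P)30, mice 1 to 3, and Otx2 conditional knockout (cKO) retinas at P32 (mice 4 to 6), P34 (mice 7 to 9) and P38 (mice 10 to 12), taken 2, 4 and 8 d after a single tamoxifen injection at P30. The cKO mice were Crx-CreERT2;Otx2 flox/flox, in which the Crx transgene directs the tamoxifen-dependent recombinase to photoreceptors. The P30 mice are labelled control (Control_Crx) and, per the study's methods, stand for the time of injection; their alleles are not stated for these samples. Age, tamoxifen and deletion changed together between P30 and the later ages and cannot be told apart.

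Fibulins are secreted glycoproteins of basement membranes and elastic fibers, built from repeated EGF-like modules and a fibulin-type C-terminal domain. LTBPs resemble fibrillins: they lie on extracellular microfibrils, and LTBP1, LTBP3 and LTBP4 also bind the latent form of TGF-beta and hold it in the matrix until it is activated. In the eye, microfibrils form the zonule that suspends the lens from the ciliary body, and elastic fibers run through Bruch's membrane under the retinal pigment epithelium (RPE).

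At P34, 7 of the 10 genes were lower than at P30, beside 0.660% of all genes tested. At P32 and P38 none of the 10 passed the test, and neither did any other gene (0% of all genes tested). The fall at P34 was 30.7-fold for Fbln1, 18.3-fold for Ltbp2, 4.52-fold for Ltbp1, 3.80-fold for Fbln2, 3.70-fold for Fbln7, 3.27-fold for Fbln5 and 1.90-fold for Efemp1. Efemp2 and Ltbp3 were at 65.9% and 67.0% of their P30 means at P34 without passing the test, and Ltbp4 was at 116%. Fbln1, Ltbp1 and Ltbp2 were also lower at P34 than at P32 (0.242% of all genes) and higher at P38 than at P34 (0.199%). A gene was called when the adjusted p of edgeR's quasi-likelihood test (Benjamini-Hochberg over all genes tested) was at most 0.05 and the log2 fold change at least 0.5 in size. In whole-retina RNA, fewer cells of a type and less RNA per cell cannot be told apart.

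The stretches just before the annotated starts of Fbln1, Ltbp2 and Ltbp1, which moved together in 3 comparisons, and of Ltbp4, which did not, are shown here so that a reader can set them side by side. They come from RefSeq (GRCm38.p6), which held a start for all 10 genes. In Ltbp2 and Ltbp4 the GENCODE gene begins 41 and 80 bases earlier, and the run stops there. Fbln1 lies on the plus strand at chr15:85205699-85205948, Ltbp2 on the minus strand at chr12:84876533-84876741, Ltbp1 on the plus strand at chr17:75005279-75005528 and Ltbp4 on the minus strand at chr7:27337693-27337862. Each is written 5′ to 3′ on the gene's strand, which was checked against the GENCODE transcripts (for Ltbp1 over 11 bases only, since its GENCODE gene begins after the RefSeq start), and capitals mark matches, on either strand, to the 4 motifs named after the sequences.
Fbln1: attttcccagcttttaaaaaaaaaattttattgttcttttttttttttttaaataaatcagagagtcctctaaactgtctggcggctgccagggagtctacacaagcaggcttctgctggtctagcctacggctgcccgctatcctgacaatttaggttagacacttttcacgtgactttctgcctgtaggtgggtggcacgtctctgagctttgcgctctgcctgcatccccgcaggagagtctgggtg
Ltbp2: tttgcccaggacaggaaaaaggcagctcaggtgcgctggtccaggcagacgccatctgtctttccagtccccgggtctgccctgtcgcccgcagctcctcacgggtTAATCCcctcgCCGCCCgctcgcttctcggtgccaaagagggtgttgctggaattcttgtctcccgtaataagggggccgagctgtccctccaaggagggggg
Ltbp1: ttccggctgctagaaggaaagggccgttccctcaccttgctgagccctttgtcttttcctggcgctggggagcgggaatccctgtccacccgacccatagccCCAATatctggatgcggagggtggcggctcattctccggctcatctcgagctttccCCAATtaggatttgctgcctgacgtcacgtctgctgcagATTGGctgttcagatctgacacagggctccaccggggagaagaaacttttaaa
Ltbp4: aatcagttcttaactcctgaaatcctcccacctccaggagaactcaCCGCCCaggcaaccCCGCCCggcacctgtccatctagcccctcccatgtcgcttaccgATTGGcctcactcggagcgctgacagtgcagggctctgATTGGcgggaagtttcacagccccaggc

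The motif TAATCC is the core sequence bound by OTX2 and its relative CRX. The others searched were GGGCGG, known as the GC box, then TATAAA, a common core promoter element, and the short motif CCAAT. In the 250 bases before the RefSeq start, TAATCC was found in 1 of the 10 genes, Ltbp2, starting 144 bases before the start, and in 6.25% of 32851 such windows of all genes. Ltbp2 also held 2 GGGCGG matches, the one nearer the gene 9 bases before the start and outside the printed run, where 32.7% of all windows held at least 1. Ltbp1 held 3 CCAAT matches and Ltbp4 2, against 33.8% of windows with at least 1, and Ltbp4 held 3 GGGCGG matches, 1 of them outside the printed run. Fbln1 held none of the 4 motifs, and TATAAA, present in 12.4% of all windows, was in none of the 10 genes. The motifs did not overlap one another in the 4 runs. A match describes the letters only.

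Total counts on genes ranged from 29701483 to 60145034 per library, and a count of 3 corresponded to 0.0473 to 0.102 CPM (counts scaled to library size). The summed level of 7 rod photoreceptor markers was 62496 to 68766 CPM at P30, 56412 to 61610 at P32, 71058 to 94816 at P34 and 69607 to 104827 at P38. At P34 and P38 none of the 7 had a negative log2 fold change against P30, and none was called higher or lower. Otx2 itself was at 293 to 377 CPM in the 12 libraries, with log2 fold changes of 0.14, 0.15 and 0.17 at P32, P34 and P38 (adjusted p = 0.703, 0.684 and 0.847, edgeR). The deletion removes 1 coding exon, and counts over the whole gene do not show it. P32 mouse 6 stood apart from the other two P32 mice, with summed lens markers of 485 CPM against 29196 and 22141 and summed ciliary body and iris markers of 58.0 CPM against 125 and 149. P30 mouse 1 was low in summed smooth muscle markers (28.9 CPM against 179 and 197) and pigment cell markers (115 CPM against 816 and 665). Counts of called fibulin and LTBP genes that changed without either mouse are given with and without it.

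Levels were compared between genes only per kilobase of exon (RPKM). At P30, Efemp1 had the highest level, 34.5 ± 4.20 RPKM (SD, n = 3), followed by Fbln1 at 18.4 ± 0.345 and Ltbp3 at 5.88 ± 0.423, and the values of these 3 genes did not overlap. Ltbp2 at 3.13 ± 0.471 RPKM and Efemp2 at 2.85 ± 0.201 RPKM came next and overlapped each other. Ltbp1 stood at 2.23 ± 0.302 RPKM. Ltbp4 (1.13 ± 0.337), Fbln7 (0.965 ± 0.0248), Fbln5 (0.964 ± 0.263) and Fbln2 (0.648 ± 0.172 RPKM) followed, each overlapping its neighbor in the order. At P34 Efemp1 was still first at 18.1 ± 0.752 RPKM, followed by Ltbp3 at 3.94 ± 0.739, Efemp2 at 1.88 ± 0.116 and Ltbp4 at 1.32 ± 0.253. Fbln1 had moved from rank 2 to rank 5 with 0.599 ± 0.243 RPKM, where it overlapped Ltbp1, the next in the order. Ltbp2 had moved from rank 4 to rank 9 with 0.171 ± 0.0250 RPKM and overlapped Fbln2, the last. At P38 Fbln1 was again at rank 2 (10.1 ± 2.12 RPKM) and Ltbp2 at rank 4 (2.75 ± 1.09 RPKM), overlapping Efemp2. Efemp1 was the most abundant of the 10 transcripts at all 4 ages.

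**Figure D1:**
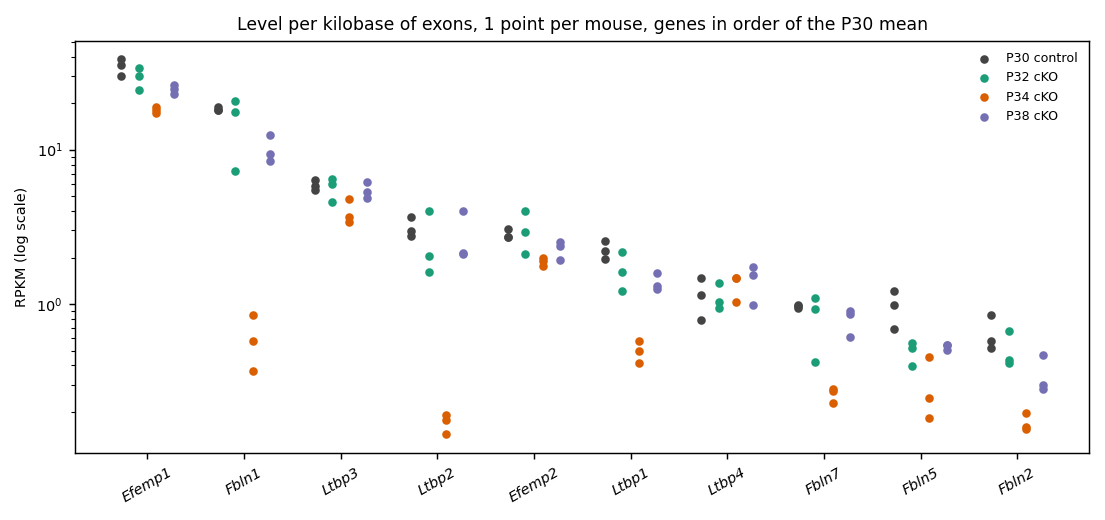
Level of each gene in RPKM on a log scale, with 1 point per mouse and 1 color per condition, and the genes ordered from left to right by their P30 mean. The P34 points of Fbln1 (mean 0.599 RPKM) and Ltbp2 (mean 0.171 RPKM) lie far under their P30 points, and Efemp1 is highest in every condition.

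Fibulin-1, the product of Fbln1, is a basement membrane and elastic fiber protein that binds fibronectin, nidogen and versican. Its gene (ENSMUSG00000006369) spans chr15:85205949-85286535. Fbln1 was at 79.4, 82.0 and 79.3 CPM in the P30 mice and at 3.73, 1.62 and 2.51 CPM in the P34 mice. The P30 values lay within 3 CPM of each other, and all P34 values were far below them. The P32 mice were at 76.7, 89.8 and 31.9 CPM, with mouse 6 low and mice 4 and 5 near P30, and the P38 mice at 40.8, 54.6 and 37.0 CPM. All P38 values lay between the P30 and P34 ranges. The log2 fold change against P30 was -4.94 ± 0.402 (SE) at P34 (adjusted p = 0.000265, edgeR), -0.28 ± 0.329 at P32 (adjusted p = 0.771) and -0.86 ± 0.332 at P38 (adjusted p = 0.847). Fbln1 fell by 4.66 on the log2 scale from P32 to P34 (adjusted p = 0.000672, edgeR), and from P34 to P38 it rose by 4.08 (adjusted p = 0.00114).

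Fibulin-2, encoded by Fbln2, is found in basement membranes and developing heart and vessels. The CPM of Fbln2 were 3.33, 3.67 and 5.38 in the P30 mice, 2.76, 4.29 and 2.64 in the P32 mice, 1.02, 0.980 and 1.25 in the P34 mice and 1.92, 2.98 and 1.80 in the P38 mice. The P34 values were the lowest 3 of the 12, and the P38 values lay above all of them and below all P30 values. At P34 Fbln2 fell by 1.93 ± 0.293 on the log2 scale (adjusted p = 0.00982, edgeR), and the P38 log2 fold change was -0.88 ± 0.279 (adjusted p = 0.847).

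Fibulin-5, encoded by Fbln5, binds integrins and tropoelastin and is needed to assemble elastic fibers. In the P30 mice Fbln5 was at 4.78, 6.80 and 8.41 CPM, in the P32 mice at 3.57, 3.88 and 2.74 CPM, in the P34 mice at 1.71, 1.27 and 3.15 CPM and in the P38 mice at 3.76, 3.49 and 3.73 CPM. All 9 cKO values lay below all 3 P30 values, which no other gene of the 10 showed, and the P32 and P34 values overlapped. The share of all genes tested with this pattern was not counted. The log2 fold changes were -0.97 ± 0.305 at P32 (adjusted p = 0.698), -1.71 ± 0.315 at P34 (adjusted p = 0.0313) and -0.86 ± 0.304 at P38 (adjusted p = 0.847, all edgeR). The P34 call for Fbln5 was lost in 8 of 21 alternative settings, with adjusted p between 1.16e-05 and 0.183.

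Fibulin-7, encoded by Fbln7, is a cell adhesion protein first known from teeth. Fbln7 was at 3.12, 3.19 and 3.03 CPM at P30 and at 0.911, 0.735 and 0.880 CPM at P34. The groups were well apart. At P32 it was at 3.51, 3.00 and 1.36 CPM, with mouse 6 again low, and at P38 at 2.79, 2.91 and 1.97 CPM. At P34 Fbln7 fell by 1.89 ± 0.319 on the log2 scale (adjusted p = 0.0185, edgeR), a call lost in 5 of 21 alternative settings.

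Efemp1 encodes fibulin-3, which is mutated in an inherited macular dystrophy with deposits under the RPE. The CPM of Efemp1 were 71.6, 78.2 and 61.2 in the P30 mice, 68.9, 61.3 and 49.3 in the P32 mice, 38.4, 37.1 and 35.3 in the P34 mice and 50.3, 53.5 and 46.8 in the P38 mice. The P34 values were the lowest and closest together, and the P38 values lay between those of P34 and P30. At P34 Efemp1 fell by 0.93 ± 0.130 on the log2 scale (adjusted p = 0.00571, edgeR), and the P38 log2 fold change of -0.49 ± 0.129 had an adjusted p of 0.719. At P32 the log2 fold change of Efemp1 was -0.23, and it ran from -0.35 to -0.11 when 1 mouse was left out (-0.11 without P32 mouse 6). Efemp2 encodes fibulin-4, which brings lysyl oxidase to tropoelastin. In the P30 mice Efemp2 was at 11.7, 10.4 and 10.3 CPM, in the P32 mice at 15.2, 11 and 7.98 CPM, in the P34 mice at 7.54, 6.66 and 7.14 CPM and in the P38 mice at 9.61, 9.01 and 7.33 CPM. Its P34 values lay below all P30 values, and the log2 fold change of -0.60 ± 0.202 did not pass the test (adjusted p = 0.315, edgeR).

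**Figure D2:**
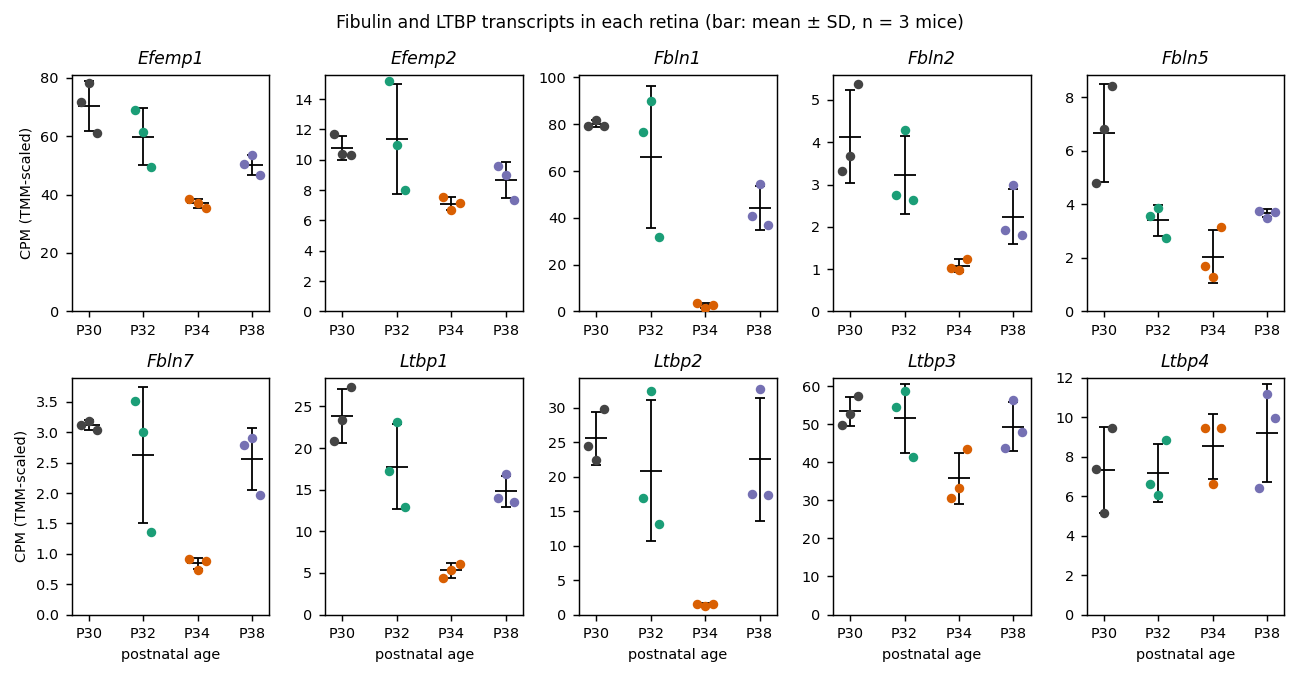
TMM-scaled CPM of each gene by postnatal age, with 1 point per mouse and a bar for the mean ± SD (n = 3 mice); P30 is control and the other ages are cKO, and each vertical axis starts at 0. Fbln1 and Ltbp2 come close to 0 at P34 (means 2.62 and 1.40 CPM) and are back at 44.1 and 22.5 CPM at P38, and Ltbp4 shows no such dip.

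LTBP2 lies on microfibrils, is needed for the ciliary zonule and does not bind latent TGF-beta, unlike the other three LTBPs. Its gene, Ltbp2 (ENSMUSG00000002020), spans chr12:84783212-84876532. Ltbp2 was at 24.4, 22.5 and 29.9 CPM at P30 and at 1.57, 1.18 and 1.46 CPM at P34. It was at 16.9, 32.5 and 13.2 CPM at P32 and at 17.5, 32.8 and 17.3 CPM at P38. P32 mouse 5 and P38 mouse 11 were above the highest P30 mouse, the other P32 and P38 mice were below all P30 values, and the P34 mice were far below every other mouse. The log2 fold change against P30 was -4.19 ± 0.381 at P34 (adjusted p = 0.000443, edgeR). It was -0.29 ± 0.318 at P32 (adjusted p = 0.756, edgeR) and -0.18 ± 0.318 at P38 (adjusted p = 0.942). When 1 mouse was left out, it ran from -0.76 to -0.05 at P32 (-0.05 without P32 mouse 6). At P38 it ran from -0.56 to -0.02. Ltbp2 fell by 3.90 on the log2 scale from P32 to P34 (adjusted p = 0.00106, edgeR) and rose by 4.01 from P34 to P38 (adjusted p = 0.00114). The span of the antisense gene D030025P21Rik overlaps that of Ltbp2 by 764 bases, and D030025P21Rik was at 0 to 0.0704 CPM.

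LTBP1 carries latent TGF-beta to the matrix, where it binds fibronectin and fibrillin. The CPM of Ltbp1 were 20.9, 23.4 and 27.3 in the P30 mice, 17.3, 23.1 and 12.9 in the P32 mice, 4.42, 5.32 and 6.13 in the P34 mice and 14, 16.9 and 13.5 in the P38 mice. The P34 mice were below all others, and the P38 mice lay between P34 and P30. The log2 fold change against P30 was -2.17 ± 0.212 at P34 (adjusted p = 0.000623, edgeR), -0.43 ± 0.200 at P32 (adjusted p = 0.698) and -0.69 ± 0.201 at P38 (adjusted p = 0.813). Ltbp1 fell by 1.75 from P32 to P34 (adjusted p = 0.00388, edgeR) and rose by 1.49 from P34 to P38 (adjusted p = 0.0123), both on the log2 scale. In a fit of the P32 and P34 mice only, the fall of Ltbp1 between these ages did not pass the test. Without P34 mouse 7, P34 mouse 8 or P38 mouse 11, the rise of Ltbp1 at P38 no longer passed the test. In these fits 2 of the 10 genes, Fbln1 and Ltbp2, were called higher, beside 0.0629%, 0.0421% and 0.0839% of all genes.

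LTBP3 and LTBP4 are the other two carriers of latent TGF-beta, and LTBP4 also takes part in elastic fiber assembly. In the P30 mice Ltbp3 was at 49.9, 52.7 and 57.5 CPM, in the P32 mice at 54.6, 58.7 and 41.3 CPM, in the P34 mice at 30.7, 33.3 and 43.4 CPM and in the P38 mice at 43.8, 56.3 and 48.0 CPM. All P34 values lay below all P30 values, but the log2 fold change of -0.58 ± 0.161 did not pass the test (adjusted p = 0.222, edgeR). The CPM of Ltbp4 were 7.38, 5.13 and 9.48 in the P30 mice, 6.63, 6.07 and 8.87 in the P32 mice, 9.47, 6.64 and 9.48 in the P34 mice and 6.41, 11.2 and 9.98 in the P38 mice. The 4 conditions overlapped, and the log2 fold changes were -0.02 ± 0.267 at P32, 0.22 ± 0.267 at P34 and 0.33 ± 0.266 at P38 (adjusted p = 0.981, 0.827 and 0.861, edgeR).

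**Figure D3:**
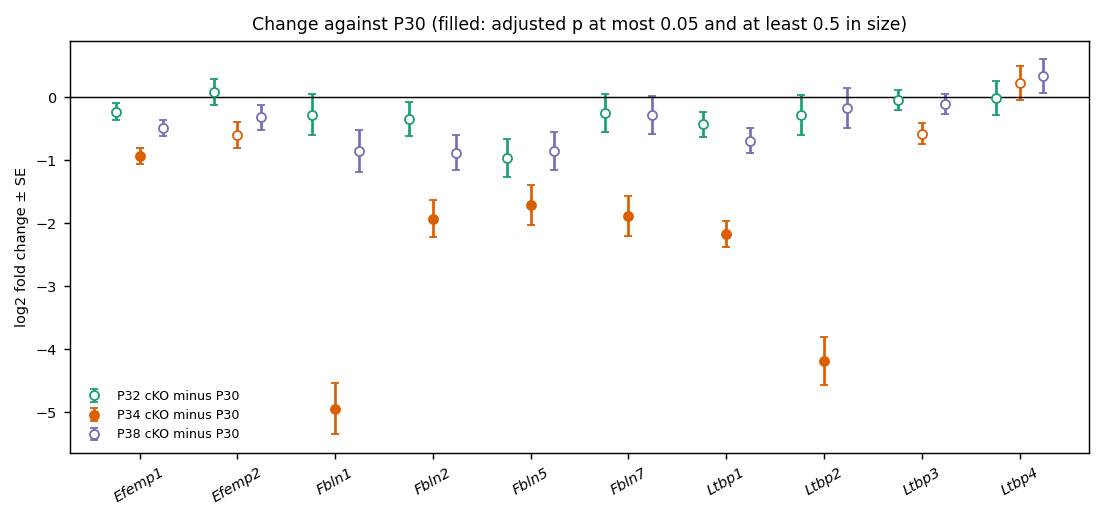
Log2 fold change against P30 (± SE, 3 mice per condition) of each gene at P32, P34 and P38, where filled points passed the test. The 7 filled points are all at P34 and run from -0.93 for Efemp1 to -4.94 for Fbln1.

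Of all genes tested, 0.660% were called lower at P34 against P30, beside 7 of the 10 fibulin and LTBP genes. The 3 P34 values lay below all 3 P30 values in 9 of the 10, beside 9.67% of all genes tested. At P34 the 10 genes had a median log2 fold change of -1.80, where that of all genes tested was 0. Without P34 mouse 7 or without P34 mouse 8, 4 genes were called at P34 (Efemp1, Fbln1, Ltbp1 and Ltbp2), beside 0.283% and 0.226% of all genes. With sex as a term 6 were called (all but Fbln5 of the 7), beside 0.762% of all genes. The P30 mice were 3 females, and each of the P34 and P38 groups held 1 female and 2 males.

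At P32 none of the 10 genes was called lower than at P30, as in 0% of all genes tested, and at an unadjusted p of 0.05 with the same fold 1 was (Fbln5), as in 1.77% of all genes; DESeq2 called 0 of the 10. The 3 P32 values lay below all 3 P30 values in 1 gene, Fbln5, and in 4.39% of all genes tested, and the 10 genes had a median log2 fold change of -0.27 against -0.01 for all genes. At P38 none was called, as in 0% of all genes, and 4 were at an unadjusted p of 0.05 with the same fold (Fbln1, Fbln2, Fbln5 and Ltbp1), as in 2.66% of all genes; DESeq2 again called 0 of the 10. Efemp1 had the smallest unadjusted p of the 10 at P38 in edgeR's quasi-likelihood test, with a log2 fold change of -0.49 just short of that fold. The P38 values lay below all P30 values in 7 of the 10, beside 7.96% of all genes, with a median log2 fold change of -0.40 over the 10 and -0.01 over all genes. With the 9 cKO mice taken as 1 group against P30, none of the 10 was called by edgeR or DESeq2. Of all genes, 0.0537% were called lower by edgeR. At an unadjusted p of 0.05 with the same fold 4 of the 10 passed (Efemp1, Fbln2, Fbln5 and Ltbp1), as did 1.57% of all genes in that direction. In this fit, differences between the cKO ages count as spread within the group. The SE of Fbln1 was 0.861 in it, against 0.402 for P34 against P30.

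Between cKO ages, 3 of the 10 genes (Fbln1, Ltbp1 and Ltbp2) were lower at P34 than at P32, as were 0.242% of all genes tested, and the same 3 were higher at P38 than at P34, as were 0.199% of all genes. Without P32 mouse 6, 8 of the 10 were called lower at P34 than at P32, all but Fbln5 and Ltbp4, and the share of all genes called rose to 6.87%. Without the same mouse Fbln7 joined the 3 genes called higher at P38 than at P34, beside 0.304% of all genes. Between P38 and P32 none of the 10 was called, as in 0% of all genes tested, none passed at an unadjusted p of 0.05 with the same fold (6.23% of all genes lower and 5.68% higher), and DESeq2 called 0 (2.22% and 2.58%). Without P32 mouse 6, Efemp2 and Fbln1 were called lower at P38 than at P32, beside 3.69% of all genes. In a fit of the P32 and P34 mice only, 2 of the 10, Fbln1 and Ltbp2, were called lower at P34, beside 0.0591% of all genes. The comparisons that share the P34 mice are not independent of each other.

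Among 13 elastic fiber and microfibril partners, all of which were tested, 3 were lower at P34 than at P30 and none higher. Of all genes tested, 0.660% were called lower. The median log2 fold change was -0.92 over the 13 and 0 over all genes. Mfap4, a microfibril-associated glycoprotein, was at 29.6, 38 and 28.6 CPM in the P30 mice, 23.1, 28.6 and 9.56 CPM in the P32 mice, 1.13, 0.637 and 0.745 CPM in the P34 mice and 21.9, 19.9 and 9.37 CPM in the P38 mice. It fell by 5.25 ± 0.474 on the log2 scale at P34 (adjusted p = 0.000443, edgeR). Its P34 values lay far below those of all other mice. Fbn1, which encodes fibrillin-1, the main microfibril protein to which LTBPs attach, was at 55.0, 67.2 and 69.0 CPM at P30 and 13.5, 17.5 and 15.8 CPM at P34, and fell by 2.03 ± 0.233 on the log2 scale (adjusted p = 0.00158, edgeR). Lox, the lysyl oxidase that cross-links elastin, fell by 2.61 ± 0.515 (adjusted p = 0.0442, edgeR) from 0.899, 1.55 and 1.13 CPM to 0.193, 0.0980 and 0.305 CPM. From P32 to P34 Mfap4 fell by 4.60 and Fbn1 fell by 1.41 on the log2 scale (adjusted p = 0.00140 and 0.0279, edgeR), and from P34 to P38 they rose by 4.35 and 1.65 (adjusted p = 0.00240 and 0.0123, edgeR). No partner was called at P32 or P38 against P30 by edgeR or DESeq2, and at an unadjusted p of 0.05 with the same fold 1 was lower at P32 (1.77% of all genes) and 2 at P38 (2.66%). DESeq2 called 6 of the 13 lower at P34, beside 1.89% of all genes. Without P30 mouse 1, Lox no longer passed at P34 and 2 of the 13 were called, beside 0.777% of all genes. Without P32 mouse 6, 5 were called at P34 against P30 (Loxl1 and Mfap2 in addition), beside 1.11% of all genes, and 7 in place of 2 were lower at P34 than at P32, beside 6.87%. Eln, which encodes elastin itself, had a log2 fold change of -0.56 ± 0.216 at P34 (adjusted p = 0.394).

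None of the 14 tested genes of latent TGF-beta ligands, activators and receptors was called by edgeR in any of the 7 comparisons, and their median log2 fold change at P34 was -0.09. The 2 with the smallest p at P34 were Tgfbr3, the co-receptor betaglycan, at -1.04 ± 0.222 (adjusted p = 0.0686, edgeR), and Bmp1, a protease that cleaves LTBP1, at -0.44 ± 0.147 (adjusted p = 0.314). At P34 against P30, 1 of the 14 passed at an unadjusted p of 0.05 with the same fold, beside 5.42% of all genes, and DESeq2 called 1 (Tgfbr3), beside 1.89%. DESeq2 also called Bmp1 lower and Itgb8, an integrin subunit that activates TGF-beta, higher at P34 than at P32 (4.49% and 2.98% of all genes), and Itgb8 higher at P38 than at P32 (2.58%). By edgeR, Tgfbr3 was called lower at P34 than at P30 without P30 mouse 1 or without P32 mouse 6 (0.777% and 1.11% of all genes), and without P32 mouse 6 Tgfb1 and Bmp1 were lower and Itgb8 higher at P34 than at P32. Tgfb2, which encodes a TGF-beta ligand, was at 97.7, 103 and 108 CPM at P30 and 85.3, 79.8 and 95.7 CPM at P34, with a log2 fold change of -0.24 ± 0.102 (adjusted p = 0.441). Beside it, the carriers Ltbp1, Ltbp3 and Ltbp4 were at 22.1%, 67.0% and 116% of their P30 means at P34.

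Some markers of tissues that adjoin the retina were also called lower at P34, in some lists and not in others, beside 0.660% of all genes tested. The summed level of 6 ciliary body and iris markers (Otx1, Zic1, Zic4, Wfdc1, Best2 and Optc) was 124 to 140 CPM at P30, 58.0 to 149 at P32, 11.1 to 16.8 at P34 and 57.5 to 106 at P38. Of the 6 markers, 5 were lower at P34 than at P30 and 3 higher at P38 than at P34. Optc alone, which encodes a proteoglycan of the vitreous, was at 99.0, 73.8 and 90.6 CPM at P30 and at 4.06, 2.47 and 2.64 CPM at P34. P32 mouse 6 was the lowest P32 mouse in this sum and in every fibulin and LTBP gene but Ltbp4, where it was the highest. Smooth muscle markers, 4 tested of 5, were summed at 28.9 to 197 CPM at P30, 10.4 to 47.4 at P32, 9.11 to 13.1 at P34 and 14.8 to 22.2 at P38, and all 4 were lower at P34 than at P30. Of 5 pigment cell markers 2 were lower, with sums of 115 to 816 CPM at P30, 28.9 to 112 at P32, 37.4 to 53.5 at P34 and 29.3 to 127 at P38. Neither sum returned to the level of P30 mice 2 and 3 at P38, and neither list had a marker called higher at P38 than at P34. Of 6 fibroblast markers 1 was lower, with sums of 64.2 to 94.9 CPM at P30, 38.4 to 72.5 at P32, 26.5 to 49.4 at P34 and 50.1 to 88.8 at P38. P30 mouse 1, low in smooth muscle and pigment cell sums, was between the other two P30 mice for Fbln1, Ltbp2, Efemp1 and Fbln7 and below both for Fbln2, Fbln5 and Ltbp1. Without this mouse the same 7 genes were called at P34, beside 0.777% of all genes, and all 5 pigment cell markers and all 5 smooth muscle markers then tested were called lower at P34. Without it 3 smooth muscle markers were also lower at P32 and 3 at P38, and 1 pigment cell marker was lower at P32, beside 0.0997% of all genes at P32 and 0.0682% at P38; Fbln5 was not called at either age. Lens markers varied within groups, from 354 to 25667 CPM at P30, 485 to 29196 at P32, 181 to 501 at P34 and 3871 to 9762 at P38, and none of the 6 was called by edgeR, though all 6 passed at an unadjusted p of 0.05 with the same fold (5.42% of all genes) and DESeq2 called 5 (1.89%). Without P32 mouse 6, 1 lens marker was called at P34 against P30 and 5 were lower at P34 than at P32, beside 1.11% and 6.87% of all genes. Without that mouse, 4 pigment cell markers were called at P34 against P30, and 6 in place of 3 ciliary body and iris markers were lower at P34 than at P32. DESeq2 also called all 5 pigment cell and all 6 ciliary body and iris markers. No marker of the RPE (6), Müller glia (5), endothelium (4), pericytes (4) or rods (7) and neither of 2 tested corneal epithelium markers was lower at P34 by edgeR, by DESeq2 or at an unadjusted p of 0.05 with the same fold. In no list was a marker at 3 counts or fewer in every library. The part of these tissues in the levels of the fibulin and LTBP genes was not tested.

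**Figure D4:**
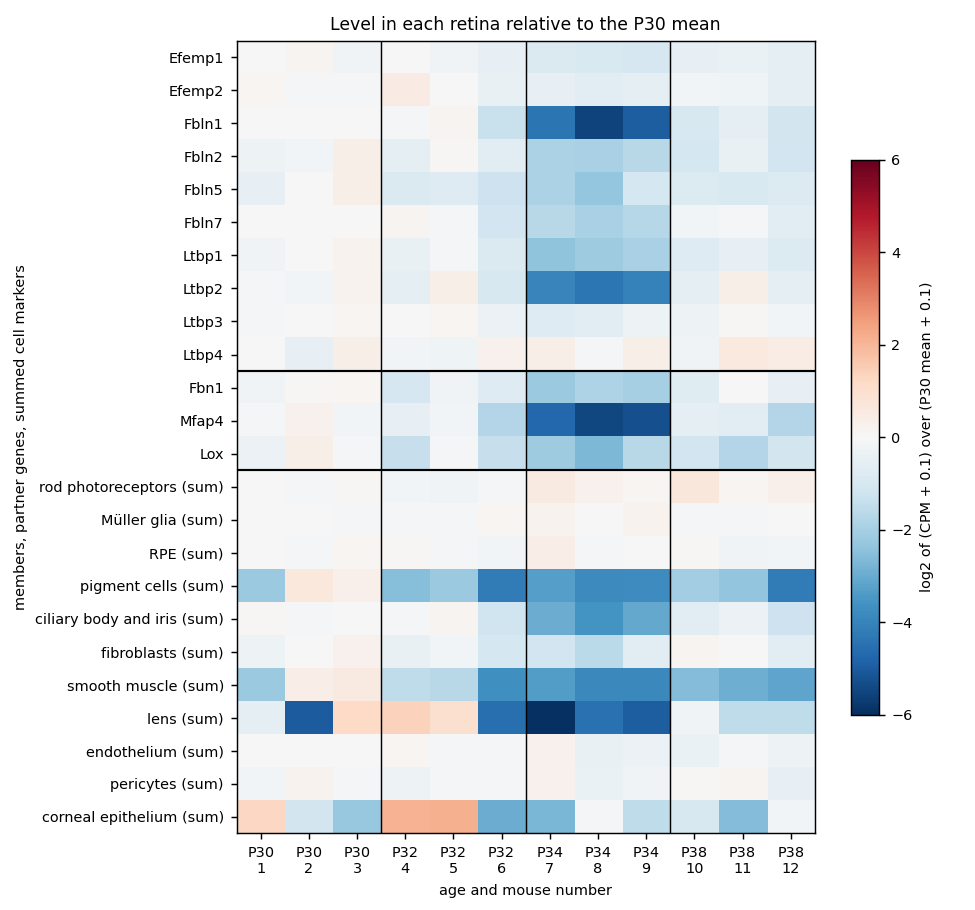
Level in each retina relative to the P30 mean, as log2 of (CPM + 0.1) over (P30 mean + 0.1), for the 10 genes (top), the called partner genes (middle) and the summed CPM of each marker list (bottom), with 1 column per mouse. Blue is below and red above the P30 mean; Within the rows of Fbln1, Ltbp2, Mfap4 and the ciliary body and iris sum, the 3 P34 columns are the darkest; the lens, smooth muscle and pigment cell sums are dark in P34 and in other columns too.

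As a description over the 12 libraries, which share their conditions, the 36 pairs among the 9 genes other than Ltbp4 had correlations (Pearson r of log2 CPM) from 0.58 to 0.98 with a median of 0.86. The highest was between Fbln1 and Ltbp2 (r = 0.98). The 9 pairs with Ltbp4 ran from -0.48 to -0.12. Against the summed ciliary body and iris markers, r was 0.99 for Fbln1, 0.97 for Ltbp1, Ltbp2 and Fbln7, 0.93 for Fbln2, 0.91 for Efemp1, 0.87 for Ltbp3, 0.82 for Efemp2, 0.81 for Fbln5 and -0.26 for Ltbp4. For Fbln5 the fibroblast sum (r = 0.87) and the smooth muscle sum (r = 0.83) were higher.

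The 3 other tested genes most like Fbln1 over the 12 libraries were Slc13a4, a sulfate transporter (r = 0.995), Optc (0.995) and Best2 (0.992). Those most like Ltbp2 were Slc26a4, the anion exchanger pendrin (0.986), Optc (0.986) and Vcan, which encodes versican (0.984). Those most like Ltbp1 were Col18a1, a basement membrane collagen (0.978), Sod3, the extracellular superoxide dismutase (0.973), and Olfml2a (0.973). For Fbln7 they were Matn2 (0.981), Zfp185 (0.978) and Sod3 (0.978), and for Fbln5 Wif1 (0.935), Gm44250 (0.932) and Angptl2 (0.932). Those of Fbln2 included Fgfr1 (0.983) and Boc (0.955), and those of Efemp1 included Cldn19 (0.955) and Penk (0.952). Optc and Best2 also belong to the ciliary body and iris list.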

How the data were processed

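Whole-retina RNA of 12 mice was sequenced as 50-bp single-end reads from stranded poly(A) libraries. Per the labels and the study's methods, the authors mapped reads to mm10 with STAR 2.5.3a and counted them per Ensembl gene with HTSeq 0.6.1p1 (union mode), and the deposited values are raw counts. The strand option used in counting is not given in the sources used here. HTSeq's lines for reads outside genes, ambiguous or not unique were left out of totals; they came to 6.53% to 13.7%, 0.646% to 0.696% and 23.7% to 32.2% of each library.

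Genes were named and placed with GENCODE M21 (GRCm38), which named 54079 of 54146. Groups came from the sample titles. The main test was edgeR 4.0.16 (R 4.3.3) with filterByExpr, TMM and 1 quasi-likelihood fit of the 4 conditions; the 9 cKO mice against P30 had a fit of their own. SE is the log2 fold change divided by the root of its F statistic. CPM are TMM-scaled, and RPKM use the union of exons. Correlations used log2 CPM with a prior count of 2, marker sums a prior count of 1. DESeq2 1.42.0 and the other alternatives are in the closing section; the DESeq2 and unadjusted counts over the partner and marker lists, and their calls without P30 mouse 1 or P32 mouse 6, were added after seeing the data. The fits were tested on simulated data. Libraries of 1 condition differed by a chi-square per degree of freedom of at least 19.9, so none was counted as a duplicate. Mice are separate animals, and the SD holds both their spread and counting error. Sex was read from Xist and Y-linked transcripts. Motifs were searched by Python 3.11.15. The 10 genes, the gene lists and the tests were chosen with earlier results of these data known. The text names all 10 genes, every called gene of the elastic fiber and TGF-beta lists (or the 2 with the smallest p where none was called) and the 3 most similar genes of each called member. Eln, Tgfb2 and D030025P21Rik were named after their values were seen. Some genes that this rule names are not reported here.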

Additional observations from a re-analysis of the deposited data

Results flagged for a closer look

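The difference between 2 cKO ages was itself tested by edgeR in the fit of all 12 libraries. It passed for 3 of the 10 genes in each of 2 comparisons. Of all genes tested, 0.242% were lower at P34 than at P32 and 0.199% were higher at P38 than at P34. From P32 to P34 the log2 fold changes were -4.66 for Fbln1, -1.75 for Ltbp1 and -3.90 for Ltbp2. From P34 to P38 they were 4.08 for Fbln1, 1.49 for Ltbp1 and 4.01 for Ltbp2. In each case all 3 mice of P34 lay below all mice of the other age. The share of all genes separated in this way was not counted. The fall of Ltbp1 from P32 to P34 did not pass in a fit of these conditions only. Both comparisons use the same P34 mice.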

How the results depend on the processing

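The 7 genes called lower at P34 against P30 (beside 0.660% of all genes) ranged from 4 to 7 when 1 mouse was left out. There were 4 without P34 mouse 7 (0.283%) or without P34 mouse 8 (0.226%). Efemp1, Fbln1, Ltbp1 and Ltbp2 kept their call in all 21 alternatives. The call was lost for Fbln5 in 8, Fbln7 in 5 and Fbln2 in 2. With an unadjusted p and the same fold, 1 gene was called lower at P32 (1.77% of all genes), 4 at P38 (2.66%) and 4 in the 9 cKO mice (1.57%), in place of 0. For P34 against P32, 3 genes (beside 0.242% of all genes) became 6 without a filter on low counts (1.25%) and 8 with DESeq2 (4.49%). With an unadjusted p 9 were called (8.93%), and with sex as a term 5 (0.467%). In a fit of these conditions only there were 2 (Fbln1 and Ltbp2, 0.0591%). When 1 mouse was left out 3 to 8 were called (8 without P32 mouse 6, 6.87%). For P38 against P34, 3 genes higher (beside 0.199% of all genes) became 6 with an unadjusted p (3.01%). They became 2 to 4 when 1 mouse was left out. There were 2 without P34 mouse 7 (0.0629%), P34 mouse 8 (0.0421%) or P38 mouse 11 (0.0839%). For P38 against P32, 0 became 0 to 2 when 1 mouse was left out (2 without P32 mouse 6, beside 3.69% of all genes). Signs turned at P32 against P30 in changes that passed no test. With sex as a term Efemp2 went from 0.08 to -0.06 and Ltbp4 from -0.02 to 0.04 on the log2 scale. When 1 mouse was left out the ranges were -0.18 to 0.28 for Efemp2, -0.23 to 0.20 for Ltbp4, -0.56 to 0.05 for Fbln1, -0.52 to 0.06 for Fbln7 and -0.15 to 0.09 for Ltbp3. Where these differ from the reported value, the cause was not tested. Over 630 recomputed fold changes of single genes, 599 kept direction and side of the threshold, 15 lost the threshold, 7 passed it and 9 turned sign. Scaling by DESeq2 size factors moved the median of all genes by at most 0.009 on the log2 scale. No paired analysis was possible because the mouse numbers are not shared between conditions. The precision of low levels is limited by depth: Fbln7 had 26, 30 and 33 counts in the P34 mice.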
